A study of Mus musculus with 8 samples.

Results

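Mitochondrial ribosomal proteins build the ribosome that works inside mitochondria. Their genes were taken as every probe of the Illumina MouseRef-8 V2 array whose annotated gene symbol begins with Mrps or Mrpl followed by a digit. The rule found 110 probes for 76 genes, of 25662 probes and 16562 named genes in all. Of these, 42 probes for 29 genes carry an Mrps symbol (small subunit) and 68 probes for 47 genes carry an Mrpl symbol (large subunit). The rule is written on gene symbols and uses no measured value, though it was set with earlier results of these data known.

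The cells were neural progenitor cells (NPCs) of mouse embryos, taken at E14.5, with a mixed C57BL/6 X 129S1/SvlmJ background. The Prmt5-depleted cells (genotype Prmt5F/FNes) carried a floxed Prmt5 gene with Cre recombinase driven by Nestin, which is active in neural progenitors. The control cells (genotype Prmt5F/F) carried the same floxed gene without Cre, so Cre itself and loss of Prmt5 cannot be told apart. Prmt5 is an arginine methyltransferase that acts on histones and on the Sm proteins of the spliceosome. Each genotype was hybridized to 4 arrays. Whether the arrays of a genotype come from separate embryos or cultures is not in the labels. The p-values therefore measure only how far these samples spread, which may be technical, and the number of arrays limits the precision.

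The 3 kept Prmt5 probes were 8.45-, 6.49- and 6.06-fold lower in Prmt5-depleted cells, with no overlap between genotypes; the labels do not say which part of the gene is deleted. Mean signal per array lay between 449 and 598 intensity units, and 12518 to 13602 probes were detected. On principal components of all kept probes, the first (74.1% of the variance) separated the genotypes. On the second (10.5%), Prmt5-depleted 1 and 3 and control 4 stood apart from the other arrays. Markers of other cells moved with genotype. Of the neuronal markers, 11 of 12 measured rose and 0 fell, with a summed linear level of 24942 to 28099 in Prmt5-depleted cells and 8616 to 9537 in control cells. Snap25 and Nefl were on the array but not kept. Of the cell-cycle markers, 9 of 10 fell, with sums of 9701 to 12422 in Prmt5-depleted cells and 24599 to 29944 in control cells, while Ccnb2 and Bub1 were not kept. Stem cell and radial glia markers summed to 32813 to 35919 in Prmt5-depleted cells and 33711 to 38466 in control cells, with 2 of 8 higher and 4 lower; Pax6 and Prom1 were not detected often enough to be kept. Their part in the results on ribosomal proteins was not tested.

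Mitochondria keep a small genome whose messenger RNAs encode core subunits of the respiratory chain and ATP synthase. These are translated by a ribosome of mitochondrial RNA and of proteins that are encoded in the nucleus, made in the cytosol and imported. The small subunit binds the messenger and reads the code, and the large subunit joins amino acids and passes the growing chain to the inner membrane. Many of the proteins have a bacterial counterpart, while others are found in mitochondria only. The ribosome is present in every cell with respiring mitochondria, neural progenitors and neurons included.

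Most mitochondrial ribosomal protein genes differed little between the genotypes, a few fell, and Mrps6 rose 2.93-fold. Of the 76 genes, 70 had a probe kept by the detection filter, 27 with an Mrps and 43 with an Mrpl symbol, and all 70 were detected on all 8 arrays. In limma at a Benjamini-Hochberg adjusted p under 0.05, 14 of the 70 were lower in Prmt5-depleted cells, where 24.5% of the 9001 genes tested were lower. Another 2 were higher, where 24.0% of all genes were higher. The share of members called in either direction was 22.9%, and 48.6% of all genes were called. The arrays of the 2 genotypes did not overlap for 15 members (21.4%), against 44.8% of all genes. A difference of at least 1.5-fold was estimated for 5 members (7.14%) and for 32.5% of all genes. Each of these shares was below that of all genes; no test of the difference was made. In bulk samples, fewer cells of a type and less RNA per cell cannot be told apart.

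The median log2 difference (Prmt5-depleted minus control) was -0.08 over the 70 members, with quartiles of -0.30 and 0.11, and -0.04 over all genes. The member median was -0.04 without Prmt5-depleted 2 or 4 or without control 4, and -0.12 without control 2. Array weights put it at -0.002. Of the members, 44 lay below 0 and 26 above. The small subunit had 5 genes lower and 1 higher of 27 tested (22.2% called), with a median of -0.05. The large subunit had 9 lower and 1 higher of 43 (23.3% called), with a median of -0.10. The count of lower members rested on some of the arrays. It was 8 without Prmt5-depleted 2, 7 without Prmt5-depleted 4 and 8 without control 4, when 4 members were higher. The small subunit had 1 gene lower without any of these 3 arrays, and its median was 0.03 without control 4. Of the 16 calls, 9 held whichever single array was left out.

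**Figure D1:**
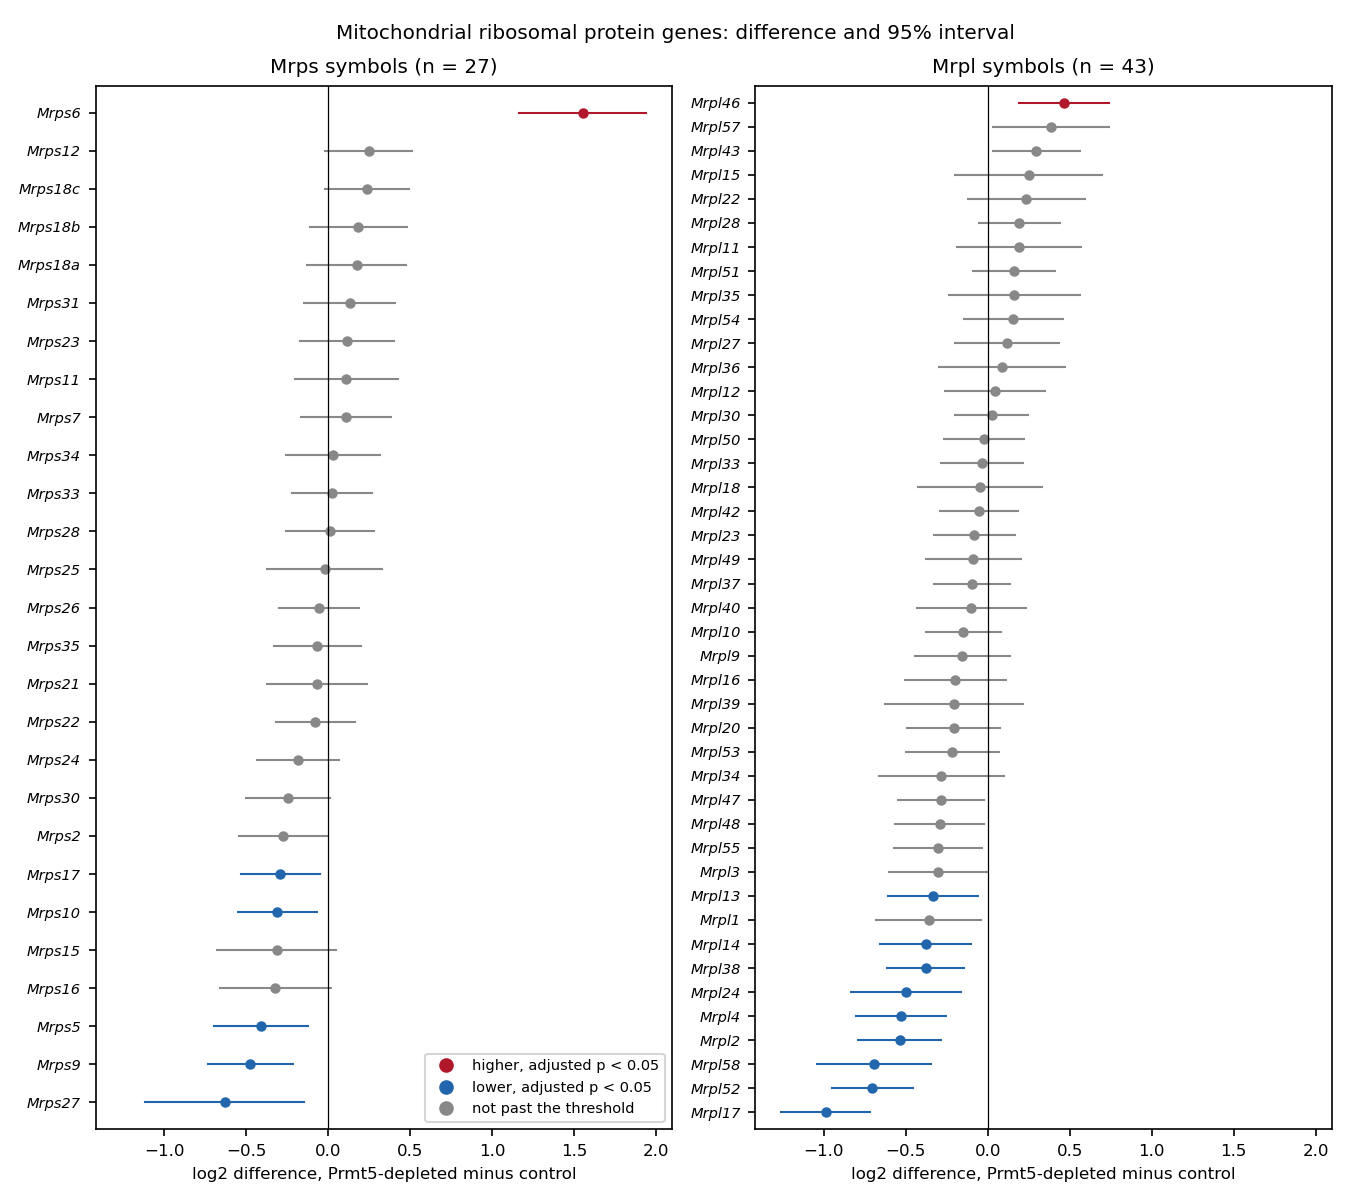
Log2 difference (Prmt5-depleted minus control, x axis) of the 70 mitochondrial ribosomal protein genes tested, by subunit, with 95% intervals from limma; colours mark genes past an adjusted p of 0.05. Most points lie close to 0, with Mrps6 at 1.55 on the right and Mrpl17 at -0.99 on the left.

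Mrps6 (probe ILMN_1246725) encodes bS6m, the counterpart of bacterial protein S6, which sits on the platform of the small subunit. Its log2 signal was 12.79, 12.62, 13.04 and 12.55 on Prmt5-depleted 1 to 4, against 11.17, 10.92, 11.01 and 11.69 on control 1 to 4. All 4 Prmt5-depleted arrays lay above all control arrays, and control 4 was the highest of the controls. The means were 12.75 ± 0.22 in Prmt5-depleted cells and 11.20 ± 0.34 in control cells (SD, n = 4 each), a log2 difference of 1.55 (SE 0.18, 95% interval 1.16 to 1.94, limma adjusted p = 2.67e-05). It held in all 19 alternative settings, with values from 1.22 to 1.77. Slc5a3, which encodes a myo-inositol transporter, shares its locus with Mrps6 and lies outside the naming rule. Its probe was detected on 3 of 4 Prmt5-depleted and 0 of 4 control arrays. The log2 signal of Slc5a3 was 5.87, 5.75, 5.12 and 5.61 on Prmt5-depleted 1 to 4, against 5.14, 5.07, 5.29 and 4.89 on control 1 to 4. It was too dim for the filter and was not tested. Whether the Mrps6 probe also reads transcripts of Slc5a3 was not tested.

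Mrpl46 encodes mL46, a mitochondria-specific protein of the central protuberance of the large subunit. Its log2 signal was 10.91, 10.66, 10.95 and 10.76 on Prmt5-depleted 1 to 4, against 10.47, 10.12, 10.34 and 10.49 on control 1 to 4. It was 1.38-fold higher (log2 difference 0.47, SE 0.12, limma adjusted p = 0.00895), and the genotypes did not overlap. The call of Mrpl46 was lost without the 3 arrays that stood apart (0.40, adjusted p = 0.0607).

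Among the members that fell, Mrpl17 fell most. It encodes bL17m, the counterpart of bacterial L17. Its log2 signal was 11.25, 10.97, 11.22 and 10.90 on Prmt5-depleted 1 to 4, against 11.999, 11.99, 12.06 and 12.24 on control 1 to 4. The genotypes were far from overlapping, and the difference was -0.99 (SE 0.12, 1.98-fold lower, limma adjusted p = 5.33e-05). It stayed between -1.08 and -0.90 and past the threshold in all 19 alternative settings.

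Mrpl52 encodes mL52, a mitochondria-specific protein of the large subunit. Mrpl52 had log2 signals of 10.13, 10.43, 10.21 and 10.35 on Prmt5-depleted 1 to 4, against 10.97, 10.92, 10.95 and 11.11 on control 1 to 4 (difference -0.71, SE 0.11, adjusted p = 0.000314). Mrpl58, known earlier as Ict1, is a peptidyl-tRNA hydrolase that frees stalled mitochondrial ribosomes and is built into the large subunit. Mrpl58 had 8.47, 8.08, 8.57 and 8.65 on Prmt5-depleted 1 to 4, against 9.40, 8.89, 8.998 and 9.27 on control 1 to 4 (difference -0.70, SE 0.16, adjusted p = 0.00344). Neither gene's genotypes overlapped, and both calls held in all 19 alternatives. All adjusted p-values of single genes are those of limma with Benjamini-Hochberg adjustment.

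Mrpl2, Mrpl4 and Mrpl24 encode counterparts of bacterial proteins (uL2m, uL4m and uL24m) that contact the RNA of the large subunit. Mrpl2, whose bacterial counterpart lies near the peptidyl transferase centre, had 10.55, 10.47, 10.71 and 10.38 on Prmt5-depleted 1 to 4, against 11.12, 10.98, 11.16 and 10.99 on control 1 to 4 (difference -0.54, SE 0.12, adjusted p = 0.00235). Mrpl4, whose bacterial counterpart lines the exit tunnel, had 8.84, 8.82, 9.08 and 9.001 on Prmt5-depleted 1 to 4, against 9.49, 9.24, 9.44 and 9.68 on control 1 to 4 (difference -0.53, SE 0.13, adjusted p = 0.00454). The genotypes overlapped for neither gene, and the Mrpl4 call held in all 19 alternatives. Mrpl24 had 8.80, 8.93, 8.72 and 8.51 on Prmt5-depleted 1 to 4, against 8.86, 9.26, 9.45 and 9.39 on control 1 to 4 (difference -0.50, SE 0.15, adjusted p = 0.0176). Here control 1 lay below Prmt5-depleted 2, so the genotypes overlapped. The Mrpl24 call was lost without Prmt5-depleted 4 (adjusted p = 0.0522) or without control 3 (adjusted p = 0.0559), and without the 3 arrays that stood apart (adjusted p = 0.097).

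Smaller falls were seen for Mrpl38, Mrpl14 and Mrpl13. Mrpl38 encodes mL38, a mitochondria-specific protein of the central protuberance. Mrpl38 had 11.41, 11.44, 11.31 and 11.24 on Prmt5-depleted 1 to 4, against 11.79, 11.60, 11.77 and 11.76 on control 1 to 4 (difference -0.38, SE 0.11, adjusted p = 0.0123), with no overlap. The Mrpl38 call was lost without the 3 arrays that stood apart (difference -0.38, adjusted p = 0.0601). Mrpl14 encodes uL14m, which faces the small subunit. Mrpl14 had 9.72, 9.48, 9.79 and 9.61 on Prmt5-depleted 1 to 4, against 9.92, 9.94, 9.96 and 10.30 on control 1 to 4 (difference -0.38, SE 0.13, adjusted p = 0.0277). Its genotypes did not overlap, and control 4 stood well above the other controls. The Mrpl14 call was lost without control 4 (difference -0.29, adjusted p = 0.0655), without Prmt5-depleted 2 (0.076) or without Prmt5-depleted 4 (0.0594). Mrpl13, the gene of uL13m, had 11.90, 11.66, 11.65 and 11.44 on Prmt5-depleted 1 to 4, against 11.89, 11.92, 12.10 and 12.06 on control 1 to 4 (difference -0.33, SE 0.12, adjusted p = 0.044). Prmt5-depleted 1 and control 1 were nearly equal. The Mrpl13 call was lost without Prmt5-depleted 2, 3 or 4 (adjusted p = 0.0765, 0.0864 and 0.122) and without control 2, 3 or 4 (adjusted p = 0.0645, 0.113 and 0.0806).

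In the small subunit, Mrps27 had the largest fall and also the largest SE among the 16 members called. It encodes mS27, a mitochondria-specific protein of the pentatricopeptide repeat family. Its log2 signal was 7.65, 6.95, 7.28 and 6.53 on Prmt5-depleted 1 to 4, against 7.60, 7.75, 7.49 and 8.09 on control 1 to 4 (difference -0.63, SE 0.22, adjusted p = 0.033). Prmt5-depleted 1 lay within the range of the controls. The Mrps27 call was lost without Prmt5-depleted 2 or 4 (adjusted p = 0.0802 and 0.0872) and without control 2 or 4 (0.066 and 0.0841).

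The other small-subunit members that fell encode counterparts of bacterial proteins. Mrps9, the gene of uS9m in the head of the subunit, had 10.07, 9.86, 9.96 and 9.67 on Prmt5-depleted 1 to 4, against 10.43, 10.38, 10.38 and 10.27 on control 1 to 4 (difference -0.48, SE 0.12, adjusted p = 0.00579). The Mrps9 difference was -0.63 without the 3 arrays that stood apart and -0.26 within them, where control 4 is the only control. Mrps5, the gene of uS5m in the body of the subunit, had 9.73, 9.44, 9.82 and 9.44 on Prmt5-depleted 1 to 4, against 9.92, 9.93, 10.02 and 10.20 on control 1 to 4 (difference -0.41, SE 0.13, adjusted p = 0.0213). For neither gene did the genotypes overlap. The Mrps5 call was lost without Prmt5-depleted 2 or 4 (adjusted p = 0.0602 and 0.0605) or without control 4 (0.0511). Mrps10, the gene of uS10m, averaged 8.51 ± 0.10 in Prmt5-depleted cells and 8.82 ± 0.11 in control cells (SD, n = 4 each; adjusted p = 0.0365). Mrps17, the gene of uS17m, averaged 11.46 ± 0.11 in Prmt5-depleted cells and 11.76 ± 0.09 in control cells (SD, n = 4 each; adjusted p = 0.0449). Neither overlapped, but both calls depended on most arrays. Mrps10 kept its call without Prmt5-depleted 3 or without control 2, and otherwise had an adjusted p of 0.0578 (without control 1) to 0.0947 (without control 3). Mrps17 kept its call without Prmt5-depleted 1 or without control 1, and otherwise had an adjusted p of 0.0676 (without Prmt5-depleted 2) to 0.109 (without Prmt5-depleted 4).

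**Figure D2:**
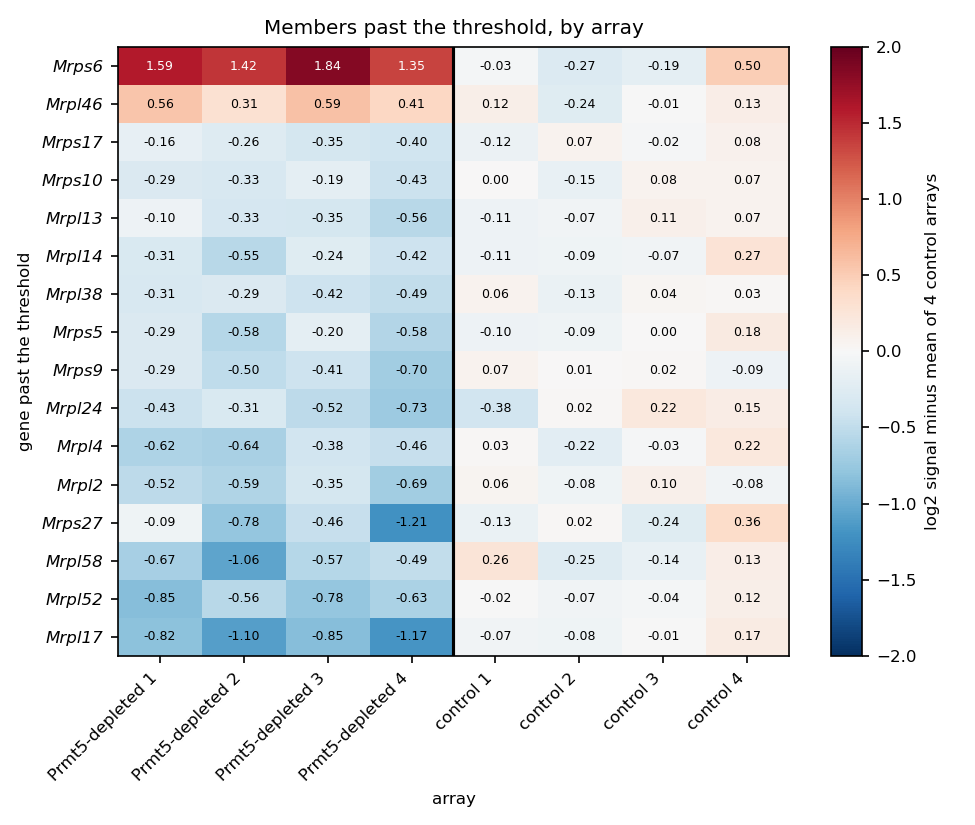
Log2 signal of the 16 called members on each array, less the mean of the 4 control arrays, with Prmt5-depleted arrays left of control arrays; colour gives the difference. Mrps6 is high on all 4 Prmt5-depleted arrays, Mrpl17 is low on all 4, and Mrps27 reaches control levels on Prmt5-depleted 1.

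The promoters of the called members were read from RefSeq (GRCm38.p6), which held 67 of the 76 genes in 73 windows of 250 bases before to 50 after the annotated start. They are shown, 5′ to 3′ along the gene, for Mrps6, which rose most, and for Mrpl17, Mrpl52, Mrpl58, Mrps27 and Mrpl2, the members with the largest falls. Capitals mark a match on either strand to CCGGAAG (ETS family, reverse complement CTTCCGG), AAGATGGC (YY1) or CACGTG (E-box), and the palindrome bound by NRF1 was also searched; the matches do not overlap each other. For Mrpl2, which has 3 windows, the first is shown.
Mrps6 (chr16:92058086-92058385, plus strand): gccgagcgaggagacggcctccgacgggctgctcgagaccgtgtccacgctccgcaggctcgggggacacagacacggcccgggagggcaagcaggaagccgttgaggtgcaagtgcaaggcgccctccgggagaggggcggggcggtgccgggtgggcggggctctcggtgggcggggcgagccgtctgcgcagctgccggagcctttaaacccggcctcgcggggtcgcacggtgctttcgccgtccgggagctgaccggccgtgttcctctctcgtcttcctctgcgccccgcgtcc
Mrpl17 (chr7:105811038-105811337, minus strand): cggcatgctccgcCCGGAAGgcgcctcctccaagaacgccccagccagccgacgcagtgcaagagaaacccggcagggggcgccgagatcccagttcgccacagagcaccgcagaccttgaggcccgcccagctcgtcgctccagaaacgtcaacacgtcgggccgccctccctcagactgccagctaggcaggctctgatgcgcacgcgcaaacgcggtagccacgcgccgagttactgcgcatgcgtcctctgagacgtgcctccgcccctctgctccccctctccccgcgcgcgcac
Mrpl52 (chr14:54426659-54426958, plus strand): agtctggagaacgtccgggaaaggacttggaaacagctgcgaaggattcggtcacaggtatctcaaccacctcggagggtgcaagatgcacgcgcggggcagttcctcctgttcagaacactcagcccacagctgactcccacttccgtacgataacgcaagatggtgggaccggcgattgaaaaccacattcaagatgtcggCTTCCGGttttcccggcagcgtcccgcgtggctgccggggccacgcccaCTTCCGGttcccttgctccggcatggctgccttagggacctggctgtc
Mrpl58 (chr11:115403502-115403801, plus strand): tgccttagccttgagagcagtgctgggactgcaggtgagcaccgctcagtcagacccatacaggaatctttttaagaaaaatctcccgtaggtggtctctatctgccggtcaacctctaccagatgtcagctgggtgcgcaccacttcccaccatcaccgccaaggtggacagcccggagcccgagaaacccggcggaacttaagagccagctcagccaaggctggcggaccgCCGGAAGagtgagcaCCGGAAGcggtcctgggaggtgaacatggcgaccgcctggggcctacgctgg
Mrps27 (chr13:99344536-99344835, plus strand): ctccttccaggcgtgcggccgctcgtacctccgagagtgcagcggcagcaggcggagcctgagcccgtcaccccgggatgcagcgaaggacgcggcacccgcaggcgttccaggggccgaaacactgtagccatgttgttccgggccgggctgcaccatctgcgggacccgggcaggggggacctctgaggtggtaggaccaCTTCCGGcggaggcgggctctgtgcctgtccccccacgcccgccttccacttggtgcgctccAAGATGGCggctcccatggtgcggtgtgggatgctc
Mrpl2 (chr17:46645971-46646270, plus strand): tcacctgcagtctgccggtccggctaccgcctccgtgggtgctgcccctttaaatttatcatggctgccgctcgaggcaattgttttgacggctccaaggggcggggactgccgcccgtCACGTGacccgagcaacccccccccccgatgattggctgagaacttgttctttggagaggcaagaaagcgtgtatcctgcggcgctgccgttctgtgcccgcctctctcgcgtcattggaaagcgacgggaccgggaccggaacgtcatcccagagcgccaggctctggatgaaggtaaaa

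The Mrps6 window, with a GC content of 73.7% and 39 CpG dinucleotides, held none of the 4 motifs. Mrpl17 and Mrps27 had 1 ETS match each and Mrpl52 and Mrpl58 had 2 each, Mrps27 also had a YY1 match, and Mrpl2 had an E-box. Over all member windows, the ETS letters occurred in 26 of 73 (35.6%), against 8.86% of the 32851 windows in the table. The YY1 letters occurred in 12 (16.4%, against 2.75%), NRF1 in 3 (4.11%, against 0.971%) and the E-box in 7 (9.59%, against 7.15%). Among genes tested here, ETS letters occurred in 25 of 62 members (40.3%) and 20.2% of 7374 genes, and YY1 in 11 members (17.7%) and 5.44% of genes. On that basis NRF1 stood in 2 members (3.23%) and 2.22% of genes, and the E-box in 5 members (8.06%) and 11.9% of genes. The ETS letters stood in 4 of 11 members that fell, 0 of 2 that rose and 21 of 49 not called (42.9%). The YY1 letters stood in 1 of the 11 that fell and 10 of the 49 not called. A match is a run of letters and not a shown binding site. Variants of the letters were not searched, for NRF1 or the others, so a window without a match may still hold a site.

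For 47 of the 70 members (67.1%), the 95% interval of the difference lay within 1.5-fold in either direction, against 37.2% of all genes. This held for 21 of 27 small-subunit and 26 of 43 large-subunit genes. The smallest differences were those of Mrps28 at 0.01 (95% interval -0.26 to 0.28), Mrps25 at -0.02 (-0.37 to 0.33), Mrpl50 at -0.02 (-0.27 to 0.22) and Mrps33 at 0.02 (-0.22 to 0.27). Mrps28 had 10.06, 9.73, 10.08 and 9.71 on Prmt5-depleted 1 to 4, against 9.82, 9.85, 9.93 and 9.93 on control 1 to 4. Mrpl50 had 11.15, 11.12, 11.11 and 10.91 on Prmt5-depleted 1 to 4, against 11.08, 11.04, 10.99 and 11.25 on control 1 to 4. Mrps33 had 12.33, 12.46, 12.40 and 12.16 on Prmt5-depleted 1 to 4, against 12.24, 12.24, 12.37 and 12.41 on control 1 to 4. In all 3 the arrays of the genotypes interleaved. Mrpl12, whose product also binds the mitochondrial RNA polymerase, had a difference of 0.04 (-0.26 to 0.35). Just short of the threshold were Mrpl55 at -0.30 (adjusted p = 0.0582), Mrpl1 at -0.36 (0.0613), Mrpl43 at 0.30 (0.0629), Mrpl47 at -0.29 (0.0668), Mrpl48 at -0.29 (0.0675) and Mrpl57 at 0.39 (0.068). Altogether 10 members without a call passed the threshold when a single array was left out, and 35 members passed in no setting.

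Members with a bacterial counterpart included 10 lower and 1 higher of 41 (median -0.16), and mitochondria-specific members 4 lower and 1 higher of 29 (median -0.06). In the small subunit these were 4 lower and 1 higher of 15 with a counterpart, and 1 lower of 12 without. In the large subunit they were 6 lower of 26 with a counterpart, and 3 lower and 1 higher of 17 without. Of members with a counterpart 24.4% were lower, and of mitochondria-specific members 13.8%, where 24.5% of all genes were lower. The called shares were 26.8% and 17.2%, against 48.6% of all genes. The difference between the classes was not tested. Mrps18a and Mrps30 carry small-subunit symbols, but their products (mL66 and mL65) lie in the large subunit. Counted by place in the ribosome, the small subunit had 5 lower and 1 higher of 25, and the large subunit 9 lower and 1 higher of 45. The genes Mrps14, Mrps36, Mrpl19, Mrpl21, Mrpl32 and Mrpl45 had no kept probe; their 7 probes were detected on 0 of 8 arrays. The product of Mrps36 is today assigned to an oxoglutarate dehydrogenase complex and not to the ribosome.

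Where a gene had several kept probes, they mostly gave the same answer. Of the 96 kept member probes, 16 were lower and 3 higher, where 24.7% of all 13196 kept probes were lower and 22.1% higher. The count of lower probes was 10 without Prmt5-depleted 2 and 9 without Prmt5-depleted 4, and 5 were higher without control 4. The 20 genes with several kept probes had 46, which pointed the same way in 18 genes and gave the same call in 17. In most of the 17 the shared answer was no call. Both kept probes of Mrps10 were called (-0.31 and -0.55), as were both of Mrps5 (-0.41 and -0.35). Mrpl13, whose second kept probe was not called, was the only other called member with a further kept probe. Each remaining call, those of Mrps6 and Mrpl17 included, rests on a single kept probe. That of Mrps17 was made over genes only, as its probe fell short over all kept probes (limma adjusted p = 0.0517).

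Mrps25, the gene of the mitochondria-specific mS25, had 3 kept probes that gave different answers. Probe ILMN_1246044 had 7.15, 7.47, 7.51 and 7.53 on Prmt5-depleted 1 to 4, against 7.94, 7.64, 7.86 and 8.10 on control 1 to 4 (difference -0.47, limma adjusted p over all kept probes = 0.0152). The Mrps25 probe with the highest mean, ILMN_1239113, had 7.93, 7.43, 8.03 and 7.62 on Prmt5-depleted 1 to 4, against 7.77, 7.53, 7.73 and 8.06 on control 1 to 4 (difference -0.02, limma adjusted p = 0.922). Of the 3, the first alone separated the genotypes without overlap. Mrps25 probe ILMN_2680111 had 7.47, 7.18, 7.59 and 7.04 on Prmt5-depleted 1 to 4, against 7.13, 7.30, 7.44 and 7.76 on control 1 to 4 (difference -0.09, limma adjusted p = 0.684).

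Mrpl51, the gene of mL51, also had 3 kept probes, all dim. Probe ILMN_2831273, detected on 3 of 4 control arrays, had 5.58, 5.62, 5.64 and 5.48 on Prmt5-depleted 1 to 4, against 5.27, 5.25, 5.11 and 5.46 on control 1 to 4 (difference 0.31, adjusted p = 0.0469). Mrpl51 probe ILMN_2645772 had 6.92, 6.89, 6.82 and 6.97 on Prmt5-depleted 1 to 4, against 6.57, 6.90, 6.65 and 6.84 on control 1 to 4 (difference 0.16, adjusted p = 0.285). For the first the genotypes were apart by a narrow margin at control 4, and for the next they overlapped. Mrpl51 probe ILMN_2653020 pointed down, with 5.403, 5.29, 5.91 and 5.62 on Prmt5-depleted 1 to 4, against 5.49, 5.54, 6.05 and 6.48 on control 1 to 4 (difference -0.33, adjusted p = 0.237). The Mrpl13 probe ILMN_2982192, which represents the gene, was at the threshold over all kept probes (adjusted p = 0.049). Its other probe, ILMN_2982200, had 8.14, 8.17, 8.31 and 7.91 on Prmt5-depleted 1 to 4, against 8.50, 8.06, 8.41 and 8.82 on control 1 to 4 (difference -0.31, adjusted p = 0.134). For Mrps7, the gene of uS7m in the head of the small subunit, probe ILMN_2981818 had 11.12, 11.30, 11.12 and 11.22 on Prmt5-depleted 1 to 4, against 11.25, 10.82, 11.01 and 11.24 on control 1 to 4 (difference 0.11, adjusted p = 0.518). Mrps7 probe ILMN_2981821 had 8.55, 8.68, 8.85 and 8.61 on Prmt5-depleted 1 to 4, against 8.77, 8.81, 8.63 and 8.90 on control 1 to 4 (difference -0.10, adjusted p = 0.516). Both Mrps7 probes overlapped between genotypes. Where the probes lie in the transcripts was not analysed here.

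Within each genotype, the members moved together between arrays. Set against the mean of the controls, the mean log2 level of the 70 members was 0.01, -0.19, 0.00 and -0.20 on Prmt5-depleted 1 to 4, against -0.01, -0.12, -0.05 and 0.17 on control 1 to 4. Prmt5-depleted 1 and 3 and control 4, the arrays that stood apart on the second component, were the high ones of their genotypes. The small subunit had 0.07, -0.12, 0.07 and -0.15 on Prmt5-depleted 1 to 4, against 0.00, -0.13, -0.05 and 0.18 on control 1 to 4. The large subunit had -0.03, -0.23, -0.04 and -0.23 on Prmt5-depleted 1 to 4, against -0.02, -0.11, -0.04 and 0.17 on control 1 to 4. In both subunits the same 3 arrays were the high ones.

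**Figure D3:**
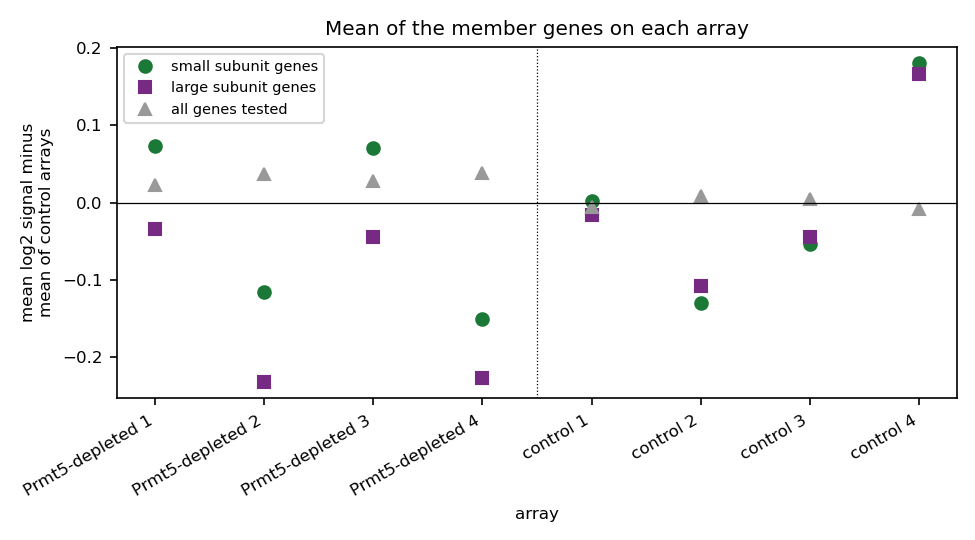
Mean log2 level of the members on each array relative to the control mean (y axis), for the small subunit (circles), the large subunit (squares) and all genes tested (triangles), with Prmt5-depleted arrays left of control arrays. Prmt5-depleted 1 and 3 lie above 2 and 4, and control 4 lies above the other controls in both subunits. Quantile normalization keeps the triangles nearly level.

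Gene by gene, Prmt5-depleted 1 and 3 both lay above 2 and 4 in 46 of 70 members (65.7%), where 28.2% of all genes did so. Control 4 was the highest control in 50 of 70 (71.4%), where 32.3% of all genes did so. Both held in 34 members (48.6%) and 14.4% of all genes. The mean difference of Prmt5-depleted 1 and 3 from 2 and 4 was 0.20 over the members and -0.01 over all genes, and that of control 4 from the other controls was 0.23 and -0.01. Quantile normalization gives every array nearly the same mean over all genes, so both values of -0.01 were largely fixed in advance. Mrps27 and Mrpl35 had the widest such gaps among Prmt5-depleted arrays (0.72 and 0.66), and Mrpl39 the widest in the opposite direction (-0.48). Of the cytosolic ribosomal proteins, 21 (36.8%) showed the first order and 24 (42.1%) the second, and of the oxidative phosphorylation subunits 30 (42.3%) and 57 (80.3%). These arrays were singled out on all kept probes, those of the members included, and what sets them apart was not tested. Without the 3 arrays, 14 members were lower and 1 higher (21.4% called), where 45% of all genes were called. Of the 16 calls 11 held, and those of Mrpl24, Mrpl38, Mrpl46, Mrps10 and Mrps17 did not. Within the 3 arrays alone, the single control was taken to vary like the others. A call lost in so few arrays is no sign of a smaller difference: Mrpl46 had 0.44 and Mrpl38 -0.39 there, while Mrpl2 had -0.36 and Mrps9 -0.26.

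Some members share a promoter region with a gene that is read the other way. In RefSeq, 26 of the 67 members in the table had such a head-to-head neighbour, on the opposite strand with a start within 1000 bases. In 16 pairs with a gene outside the family both were tested. Of these neighbours 3 were higher and 6 lower, so 9 of 16 were called, where 48.6% of all genes were called; 3 of the 16 members were called. The neighbour alone was called in 8 pairs. Ncapd2, a condensin subunit, fell by 1.25 on the log2 scale, and its neighbour Mrpl51 had 0.16. Ska3, a kinetochore protein, fell by 1.08, and Mrpl57 had 0.39. Hira, a histone chaperone, fell by 1.04, and Mrpl40 had -0.10. Sars2, the mitochondrial seryl-tRNA synthetase, fell by 0.81, and Mrps12 had 0.25. Rab6a, a Golgi GTPase, rose by 0.84, and Mrpl48 had -0.29.

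Both genes passed the test in 1 pair, in opposite directions, with Mrpl2 at -0.54 and Klc4, a kinesin light chain, at 0.55. In 7 of the 9 pairs with a called neighbour, the estimate of the member had the other sign. In 8 of the 9 the member was not called, so the sign of its estimate is not settled. For Mrpl51 the sign also differed between probes. The share of opposite signs in other gene pairs was not taken for comparison. The median absolute difference over the 16 pairs was 0.24 for the members and 0.48 for the neighbours. In the pair of 2 members, Mrpl46 was higher (0.47) and Mrps11 had 0.11 (adjusted p = 0.554).

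**Figure D4:**
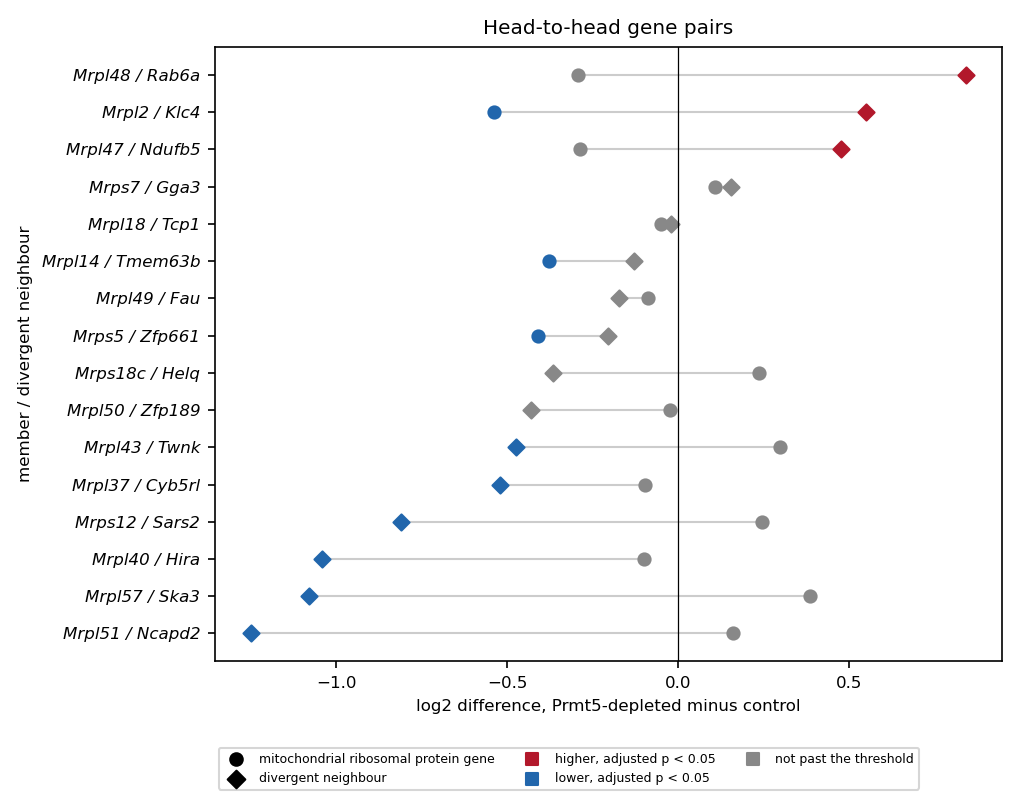
Log2 difference (Prmt5-depleted minus control, x axis) of each mitochondrial ribosomal protein gene (circle) and its head-to-head neighbour (diamond) in 16 pairs; colours mark an adjusted p under 0.05. The neighbours reach from -1.25 to 0.84, while the members stay between -0.54 and 0.39.

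Other genes of mitochondrial translation differed from list to list. Of 15 mitochondrial aminoacyl-tRNA synthetases and related enzymes, which charge the transfer RNAs, 11 fell and 0 rose (73.3% called, median -0.51). Vars2 fell by 1.21, Gatb by 0.87 and Lars2 by 0.58 on the log2 scale. Of 17 assembly factors of the mitochondrial ribosome, 6 fell and 0 rose (35.3%, median -0.24). Among them were Nsun4, which methylates the ribosomal RNA (-0.99), Tfb1m, which does so at another site (-0.93), and Metap1d (-0.59). Metap1d is counted here but is a methionine aminopeptidase that trims proteins made in mitochondria, not a known assembly factor. Of 14 genes of mitochondrial DNA maintenance, transcription and messenger stability, 6 fell and 0 rose (42.9%, median -0.20), including Polg2 (-0.75), Ssbp1 (-0.88) and Twnk (-0.48); 1 rose without control 4. Against these, 48.6% of all genes were called, 24.5% lower and 24.0% higher. All calls of these 3 lists in the main fit were lower, so the share of 24.5% is the like one. Of 10 translation factors, 2 rose (Mtrf1l at 0.35 and Mtfmt at 0.47) and 0 fell, and the elongation factor Tufm had 0.00. The count that rose was 0 without Prmt5-depleted 4 and 1 without Prmt5-depleted 2 or 3, or without control 1, 2 or 3. Dap3, Chchd1 and Ptcd3, ribosomal proteins outside the naming rule, were not called in limma (-0.27, -0.06 and 0.07), and 1 of them had an unadjusted p under 0.05; Dap3 had an adjusted p of 0.0509, and 1 of the 3 was lower without control 1.

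The products of this ribosome join subunits made in the cytosol. Of 71 nuclear subunits of oxidative phosphorylation, complex II included in the list, 30 rose and 0 fell (42.3% called, median 0.31). Of all genes, 24.0% were higher, 24.5% lower and 48.6% called either way. Cox6b2 rose by 2.19, Cox7a1 by 1.09 and Cox7a2 by 0.73 on the log2 scale. With median scaling of the arrays 15 rose, and 1 fell without Prmt5-depleted 1 or without control 1. Of 57 cytosolic ribosomal proteins, 2 rose and 12 fell (24.6% called, median -0.07). Rpl13a fell by 0.91, Rpl4 by 0.87 and Rplp0 by 0.79, while Rps15a rose by 0.76 and Rps27l by 0.67. With median scaling 24 fell, and 6 fell without Prmt5-depleted 3 and 5 without control 3. Many cytosolic ribosomal proteins have near-identical pseudogenes, so their probe values are uncertain. Of 23 import and chaperone genes, 4 rose and 4 fell (34.8% called), with Timm17a at 0.69, Timm8b at 0.61 and Tomm7 at 0.37, and Timm50 at -0.72, Tomm6 at -0.56 and Timm9 at -0.41. Without Prmt5-depleted 1 or 3, or control 2 or 3, 2 of these rose. Of 8 regulators of mitochondrial biogenesis and growth, the coactivator Ppargc1a (0.99) and the nuclear receptor Esrra (0.56) rose, and the transcription factors Nrf1 (-0.88) and Myc (-0.996) fell. The called shares of these 4 lists lay below or near the 48.6% of all genes.

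**Figure D5:**
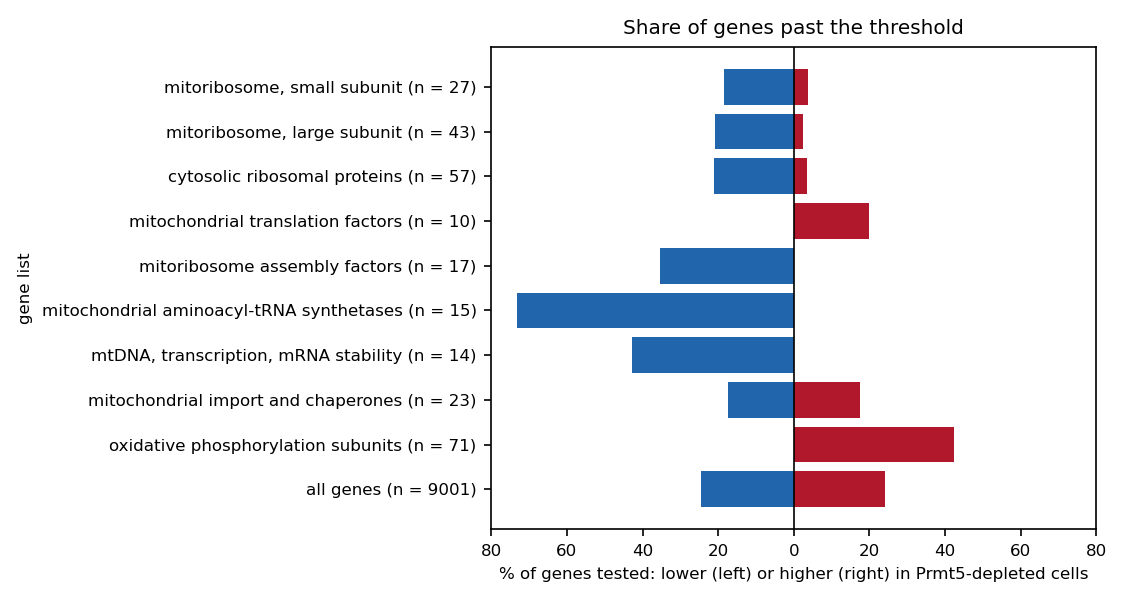
Share of tested genes (percent, x axis) that were higher or lower in Prmt5-depleted cells at an adjusted p under 0.05, for both subunits, the related lists and all 9001 genes. The called shares of the small (22.2%) and large (23.3%) subunit lie below that of all genes (48.6%), and the aminoacyl-tRNA synthetases stand at 73.3%, all lower.

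Markers of further cell types moved with genotype as well. The oligodendrocyte lineage had 6 of 7 measured markers lower and 1 higher, with sums of 23336 to 27607 in Prmt5-depleted cells and 36201 to 40416 in control cells. Mog was not kept. Astrocyte markers had 3 of 6 higher and 0 lower (8959 to 11414 in Prmt5-depleted cells, 7122 to 8958 in control cells), while Gfap, Aqp4 and S100b were not kept. Mesenchymal markers had 3 of 3 higher (950 to 1206 in Prmt5-depleted cells, 262 to 399 in control cells), while Col1a1, Col1a2, Col3a1 and Pdgfrb were not kept. Of the erythroid markers 1 of 3 on the array was kept and was higher. Of the microglial markers 1 of 5 was kept and not called, and of the endothelial markers 0 of 5 were kept. Lum (mesenchymal), Hba-a1 (erythroid) and Aif1 (microglial) were detected on 4 Prmt5-depleted and 0 control arrays. They passed the filter only through the Prmt5-depleted arrays, so the direction of their difference was largely fixed in advance.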

How the data were processed

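RNA of 8 samples, 4 Prmt5-depleted and 4 control, was biotin-labelled and run on Illumina arrays, per the labels' protocols. The authors deposited intensity values without normalization, with a detection p-value for each probe and array, per the file headers. The scanner software and earlier corrections are not stated in the sources used here. The authors' deposited matrix holds intensity values that equal the quantile-normalized first table within 3.64e-12; it is linear, uncentred and without background subtraction, and served as an alternative. Every column matched a sample by name, and 0 were left over.

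Signals were background-corrected with normexp from the detection p-values, given an offset of 16, then quantile normalized and log2-transformed by the neqc function (R 4.3.3 with statmod 1.5.0 and limma 3.58.1). The offset pulls fold changes of dim probes towards 0, and quantile normalization hides a change shared by most genes. Probes with a detection p-value under 0.05 on at least 4 of 8 arrays were kept (13196, 51.4%). Names came from the platform annotation (23943 probes with 1 gene, 0 with several, 1719 with none); 23927 probes matched RefSeq GRCm38.p6, and 0 symbols changed. For each gene the brightest kept probe was used, by mean over the arrays, which gave 9001 genes. Levels of different probes were not compared.

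Genotypes were compared with lmFit and eBayes, two-sided, with Benjamini-Hochberg adjustment over all genes, or over all kept probes where a probe is named. The fit was tested on simulated data. Values on every array are given for the 12 largest falls and rises past the threshold, for genes whose probes differed in call or direction, and for the 4 smallest differences; of related lists up to 3 genes per direction with the smallest adjusted p are named. The members and lists were chosen with earlier results of these data known. Alternatives were the deposited matrix, median scaling, another offset, 2 other detection filters, the mean of a gene's probes, the replicate number as a block, the second component as covariate, array weights, leaving out each array, and the 3 arrays that stood apart left out or taken alone. Same-numbered samples had correlations of deviations of -0.14, 0.24, -0.16 and -0.37, so the numbers do not pair the samples.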

Additional observations from a re-analysis of the deposited data

Results flagged for a closer look

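Each member tested, with the subunit means, was looked at for an array far from the other 3 of its genotype, by Dixon's criterion at the 95% level. Of 144 groups of 4 arrays, 2 met it, where chance gives about 1 in 20. Mrpl14 had 10.3 on control 4, against 9.92 to 9.96 on the other control arrays. Mrpl34, the gene of bL34m, had 10.11 on Prmt5-depleted 2, against 10.61 to 10.7 on the other Prmt5-depleted arrays; its genotypes were not called different (-0.28, limma adjusted p = 0.203).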

How the results depend on the processing

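Over 19 alternatives, the gene values stayed on their side of the threshold 1224 times, lost a call 53 times and gained one 53 times. Called values reversed 0 times, while uncalled values changed sign 57 times, in 25 genes. Calls of Mrps6, Mrpl17, Mrpl52, Mrpl58 and Mrpl4 held in all 19. The count of higher large-subunit genes was 2 with the deposited matrix, with median scaling and with an offset of 50. With the second component as covariate, 4 members were higher (21 lower), with 14 large-subunit genes lower and 3 higher and 27 probes lower and 5 higher. In that setting 35.7% of members and 55.3% of all genes were called, against 22.9% and 48.6% in the main fit. Array weights gave 9 higher and 14 lower members (32.9% called), where 54.5% of all genes were called. They also gave 3 small-subunit genes lower and 4 higher, 5 large-subunit genes higher, 10 probes higher and a small-subunit median of 0.05. Without the 3 arrays apart, 1 member, 0 large-subunit genes and 1 probe were higher; taken alone, chosen after seeing the data, they gave 1 small-subunit gene lower. Without a detection filter 26.6% of 16562 genes were called, and 14 members were lower and 2 higher. The 14 then included Mrpl45, whose probes were not detected on any array, in place of Mrps27. Median scaling put the median of all genes at -0.06 and that of the members at -0.14.

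With the replicate number as a block, 9 members were lower, 2 of them in the small subunit, 10 probes were lower and 43.6% of all genes were called. Of 4 Prmt5-depleted arrays, 0 correlated best with their own number, so the block rests on a shared number only.

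Leaving out each array in turn gave 7 to 18 members lower and 2 to 4 higher, 1 to 5 small-subunit genes lower and 1 to 2 higher, and 6 to 13 large-subunit genes lower and 1 to 2 higher. It gave 9 to 18 probes lower and 2 to 5 higher, medians of -0.10 to 0.03 (small) and -0.16 to -0.07 (large). The count of all genes called was 3884 to 4335. Signal over background limits dim probes such as ILMN_2831273 of Mrpl51, which 3 of 4 control arrays detected. The causes of these changes were not tested.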
